A study of Oryza sativa with 24 samples.

Results

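The late genes of cold-treated rice seedlings are 97 probe sets of 57258 on the array. On average over 6 accessions, their transcripts were much reduced after 24 h at 4 °C but little changed after 6 h. The late genes were chosen on values of these 6 rice accessions, 9311, IRAT109, ZS97, Geng87-304, Youmangzaogeng and Muguanuo. Each intensity was taken as log2(value + 32), and the change from before cold was averaged over the 6 accessions. A member had a mean change between -0.3 and 0.3 at 6 h and of -1 or less at 24 h, was lower at 24 h in 6 of 6 accessions, and did not belong to a set of gene families left out by name. That last condition removed 1 probe set, of a small heat shock protein gene. The changes at 6 h and 24 h therefore define the group and are given as a description, without a test.

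Rice seedlings were grown in soil to the 4-leaf stage and then kept at a steady 4 °C in a chamber with 14 h of light and 10 h of darkness, and RNA of shoot and leaf was read on 24 Affymetrix arrays. The 3 groups were seedlings before cold, after 6 h and after 24 h, each with 1 array of 8 accessions, the 6 above and Lixingeng and MH63. The labels name no mutant, transgene or agent other than cold, do not say how many plants made a sample or whether samples came from separate plantings, and list no array of plants kept warm for 6 h or 24 h. Cold therefore cannot be told apart from elapsed time, plant age or hour of the day, and the p-values below measure only the spread between these samples, which may be technical.

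The Lixingeng array before cold and the MH63 array at 24 h stood apart from the other arrays of their accessions. Their Spearman correlation with each other was 0.992, the highest of 276 pairs of arrays, against 0.981 for the next pair. Whether their labels are right could not be settled from the labels, so every value given from these 2 arrays is that of the library labelled so. They were left out of the fits, and the held-out contrasts and the accession term are given with them too. Array medians lay between 41.8 and 46.7, and precision is limited by having only 1 array for each accession at each time. Over the 6 accessions the upper quartile of the arrays averaged 122 before cold, falling to 116 by 6 h and 113 by 24 h, lower than before in 6 of 6 accessions at both times. For the actin control, 3′ over 5′ signal as a log2 ratio went from 4.02 ± 0.39 (SD, n = 6) before cold to 3.51 ± 0.51 at 24 h, lower in 6 of 6. Over the 24 arrays this ratio lay between 2.95 and 4.62, so the 3′ signal was much the larger on every array. The part of either shift in the results on the late genes was not tested.

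Seedling leaves build chloroplasts, transport ammonium and potassium, assimilate nitrogen and make hormones, and in rice, a plant of warm climates, growth slows in cold. Named late genes fall into several of these activities. Transport of ammonium and potassium is represented by AMT1-1 and HAK18, chloroplast development by the GOLDEN2-like transcription factor GLK1, thiol redox control by the thioredoxins OsTrx10 and OsTrx08, jasmonate synthesis by allene oxide cyclase (AOC), and lysine synthesis by the dihydrodipicolinate reductase DAPB1. The others are the actin depolymerizing factor ADF11, the calmodulin-like protein CML29, the beta-glucosidase BGLU13 and TBP1.

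Of the 97 probe sets, 71 were paired with a single gene, which gave 68 genes, since LOC4326757, LOC4351321 and LOC4323965 were each read by 2 members. For 26 the annotation used here gave no gene. Only 11 members carried a gene name and 60 were known by locus number alone, so most of the group can be described by its values but not by its function.

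The label "down only at 24 h" did not describe the 6 h means of the members. All 97 members were on average lower than before cold at 6 h too, by 0.0334 to 0.299 on the log2 scale with a median of -0.25, whereas the rule would also have admitted changes up to 0.3 above. Over all 57258 probe sets the median change at 6 h was -0.0064, and 53.6% were below 0. The median log2 reading before cold was 6.28 over all probe sets and 9.28 over the members. Both changes are taken from the same arrays before cold, which ties the 6 h change to the choice made at 24 h. The part of this in the lower 6 h means was not tested. At 6 h 47 members were lower in 6 of 6 accessions, 35 in 5 and 15 in 4. Only 4 members had a mean within 0.1 of their level before cold. The share of the 24 h fall that was present at 6 h had a median of 20.2% and ran from 3.08% to 29.1%. The limits of the rule cap this share, so its upper end follows from the choice of members. Here the group is called the late genes because the rule asks for a fall mostly later than 6 h. The name does not mean the absence of a change at 6 h.

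They were the minority of the transcripts that fell. The 24 h limits alone (a mean of -1 or less and a fall in every accession) were met by 1138 probe sets, 1.99% of all, and of these 1040 had already fallen by more than 0.3 at 6 h. The late genes and the probe set left out by name made up the 8.61% that stayed within 0.3. These 1040 probe sets, already lower at 6 h and with no gene family left out by name, serve below as the group to compare with. Another 4 probe sets met both limits on the mean but were not lower in every accession. The plot of change at 6 h against change at 24 h shows the late genes as the edge of a continuous cloud.

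**Figure D1:**
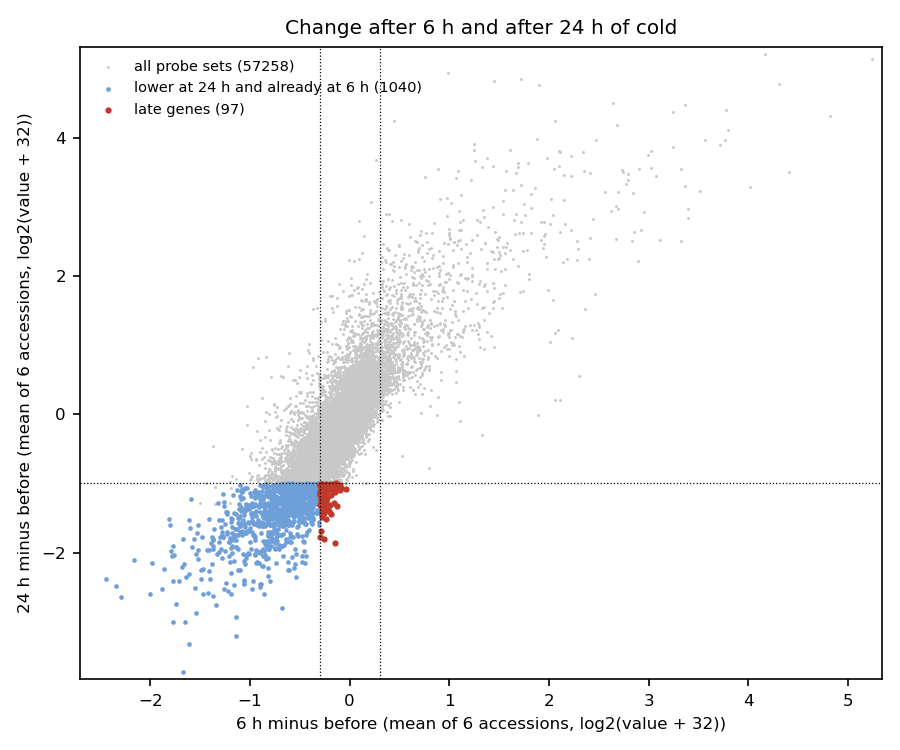
Each point is a probe set, with its mean change over 6 accessions from before cold to 6 h (horizontal) and to 24 h (vertical), in log2(value + 32); dotted lines mark -0.3 and 0.3 at 6 h and -1 at 24 h. The 97 late genes (red) lie against the -0.3 line beside the 1040 probe sets that were already lower at 6 h (blue), and none lies above 0 at 6 h.

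The members nearest to the limits show how little separates them from their neighbours. At the 6 h limit LOC4352285 was inside with a mean change of -0.29901 and LOC4342493 outside with -0.30056, and their means at 24 h were -1.12 and -1.14. The next on each side were a probe set with no gene given, with -0.299 at 6 h and -1.17 at 24 h, and LOC4340276, with -0.301 and -1.04. At the 24 h limit a probe set with no gene given with -1.0006 and LOC4340892 with -1.0038 were inside, and LOC4334503 with -0.99937 and LOC4336530 with -0.99905 were outside. LOC4334503 was 0.17 higher at 6 h. The 6 h mean of LOC4340892, -0.17 ± 0.70 (SD, n = 6), averaged changes in opposite directions, from -0.98 in IRAT109 to 0.70 in Muguanuo. Of the 423 probe sets that fell in every accession by a mean of 0.7 to 1 at 24 h and stayed within 0.3 at 6 h, 6 had a mean above 0 at 6 h.

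At 24 h the mean change of the members ran from -1.86 to -1.0006 with a median of -1.12, a 2.17-fold fall on the log2(value + 32) scale, and 62 members lay between -1 and -1.2. The offset understates the change of dim probe sets. Without it, the members kept a median of 41.5% of their intensity at 24 h, from 22.5% to 53%. The members' median log2 reading was 9.28 before cold and 8.12 at 24 h, beside 6.28 for all probe sets and 8.73 for the group already lower at 6 h before cold. Readings of different probe sets do not rank transcripts, and these medians only place the members above the dim end of the array. In 10 members at least 1 of the 6 arrays at 24 h read under its array's median. Every array at 24 h was below every array before cold in 77 of the 97 members, beside 6.07% of all probe sets. Every array at 24 h was below every array at 6 h in 57 members, beside 2.14% of all probe sets. In the linear model described below, 97 members passed as lower at 24 h and 41 as lower at 6 h, beside 20.9% and 9.91% of all probe sets. The rule used these contrasts, so the counts describe the choice of members. In bulk shoot and leaf tissue, fewer cells of a type and less RNA per cell cannot be told apart.

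The ammonium transporter AMT1-1 (LOC4336365, chromosome 4) had intensities before cold of 2356 at the lowest, 2937 at the median and 3851 at the highest of the 6 accessions. These became 1870, 2588 and 3242 at 6 h and 993, 1559 and 2092 at 24 h. No array at 24 h reached the lowest before cold, though some exceeded the lowest at 6 h. Its mean change was -0.27 ± 0.35 (SD, n = 6) at 6 h and -1.02 ± 0.52 at 24 h, from -1.91 in Youmangzaogeng to -0.41 in ZS97, where it was higher at 6 h than before. A second probe set of this gene, at 7.87 on the log2 scale before cold, changed by 0.02 at 24 h. The values above therefore hold for the member probe set.

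The potassium transporter HAK18 (LOC4347862, chromosome 9) read 405.5, 1287 and 1391 (lowest, median and highest) before cold, 292, 1017 and 1181 at 6 h, and 179, 523.5 and 662 at 24 h. The lowest array in each group was that of 9311, which read below the others at every time, so that the groups overlapped although the gene was lower at 24 h in 6 of 6 accessions. Within accessions its fall was even, at -1.14 ± 0.18 (SD, n = 6) at 24 h and -0.27 ± 0.19 at 6 h.

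The transcription factor GLK1 (LOC4340977, chromosome 6), which in plants promotes genes of chloroplast development, read 1843, 2330 and 2468 before cold, 1630, 1928 and 2325 at 6 h, and 773, 1053 and 1311 at 24 h. The 24 h arrays lay below all others. The mean change was -0.17 ± 0.14 (SD, n = 6) at 6 h and -1.05 ± 0.37 at 24 h, largest in Youmangzaogeng (-1.57) and smallest in 9311 (-0.56).

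Both thioredoxins, small proteins that reduce disulfide bonds of their targets, fell by more than 1 on the log2 scale. OsTrx10 (LOC4334453, chromosome 3), of the h type, read 2279, 2612 and 3016 before cold, 1809, 2328 and 2710 at 6 h, and 756, 1012 and 1343 at 24 h. OsTrx08 (LOC4330107, chromosome 2), of the m type found in chloroplasts, read 515, 554 and 742 before cold, 399.6, 528 and 655 at 6 h, and 209.5, 263 and 293 at 24 h. For each gene the 24 h arrays lay below every array of the other groups. The mean change at 24 h was -1.31 ± 0.32 (SD, n = 6) for OsTrx10 and -1.12 ± 0.15 for OsTrx08, and at 6 h it was -0.20 ± 0.22 and -0.17 ± 0.16.

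AOC (LOC4333201, chromosome 3), the cyclase step of jasmonate synthesis in the chloroplast, was among the most even of the named members. Its intensities were 1550, 1737 and 2371 before cold, 1208, 1445 and 1880 at 6 h, and 609.9, 687 and 885 at 24 h, and the 24 h arrays overlapped neither other group. The mean change was -0.29 ± 0.13 (SD, n = 6) at 6 h and -1.31 ± 0.14 at 24 h. DAPB1 (LOC4329224, chromosome 2), an enzyme of lysine synthesis, read 337, 365 and 476 before cold, 251, 325 and 353.5 at 6 h, and 101, 144 and 217.5 at 24 h. Its groups at 24 h and before cold did not overlap either, and its fall at 24 h was -1.26 ± 0.34, smallest in 9311 at -0.65.

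BGLU13 (LOC4336146, chromosome 4), a beta-glucosidase of the family that releases sugars from glycosides, read 239.6, 307 and 440.3 before cold, 194.5, 256 and 346 at 6 h, and 85.7, 125 and 205 at 24 h. The 24 h arrays were all below those before cold and overlapped those at 6 h. Its mean change was -0.30 ± 0.13 (SD, n = 6) at 6 h and -1.12 ± 0.20 at 24 h. Another probe set of BGLU13, at 5.78 on the log2 scale before cold, changed by 0.06 at 24 h. CML29 (LOC4341908, chromosome 6), of the calmodulin-like proteins that bind calcium, read 653, 1100 and 1267 before cold, 597, 831 and 1223 at 6 h, and 299.9, 414 and 651 at 24 h. The same pattern of overlap held, and the change was -0.26 ± 0.20 at 6 h and -1.198 ± 0.334 at 24 h.

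ADF11 (LOC4352848, chromosome 12), of the actin depolymerizing factors that sever and disassemble actin filaments, read 854, 2528 and 3374 before cold, 783, 2077 and 2690 at 6 h, and 564, 812 and 1178 at 24 h. The low value before cold was that of 9311, which fell little, by 0.42, whereas Youmangzaogeng fell by 2.26. The mean change was -1.43 ± 0.64 (SD, n = 6) at 24 h, and the groups before cold and at 24 h overlapped through 9311 alone. TBP1 (LOC4331151, chromosome 2) read 186, 224 and 257 before cold, 151.5, 176 and 207 at 6 h, and 55.7, 91.1 and 119 at 24 h, with a mean change of -1.08 ± 0.37 at 24 h. Another probe set of TBP1, at 6.84 on the log2 scale before cold, changed by -0.13 at 24 h.

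**Figure D2:**
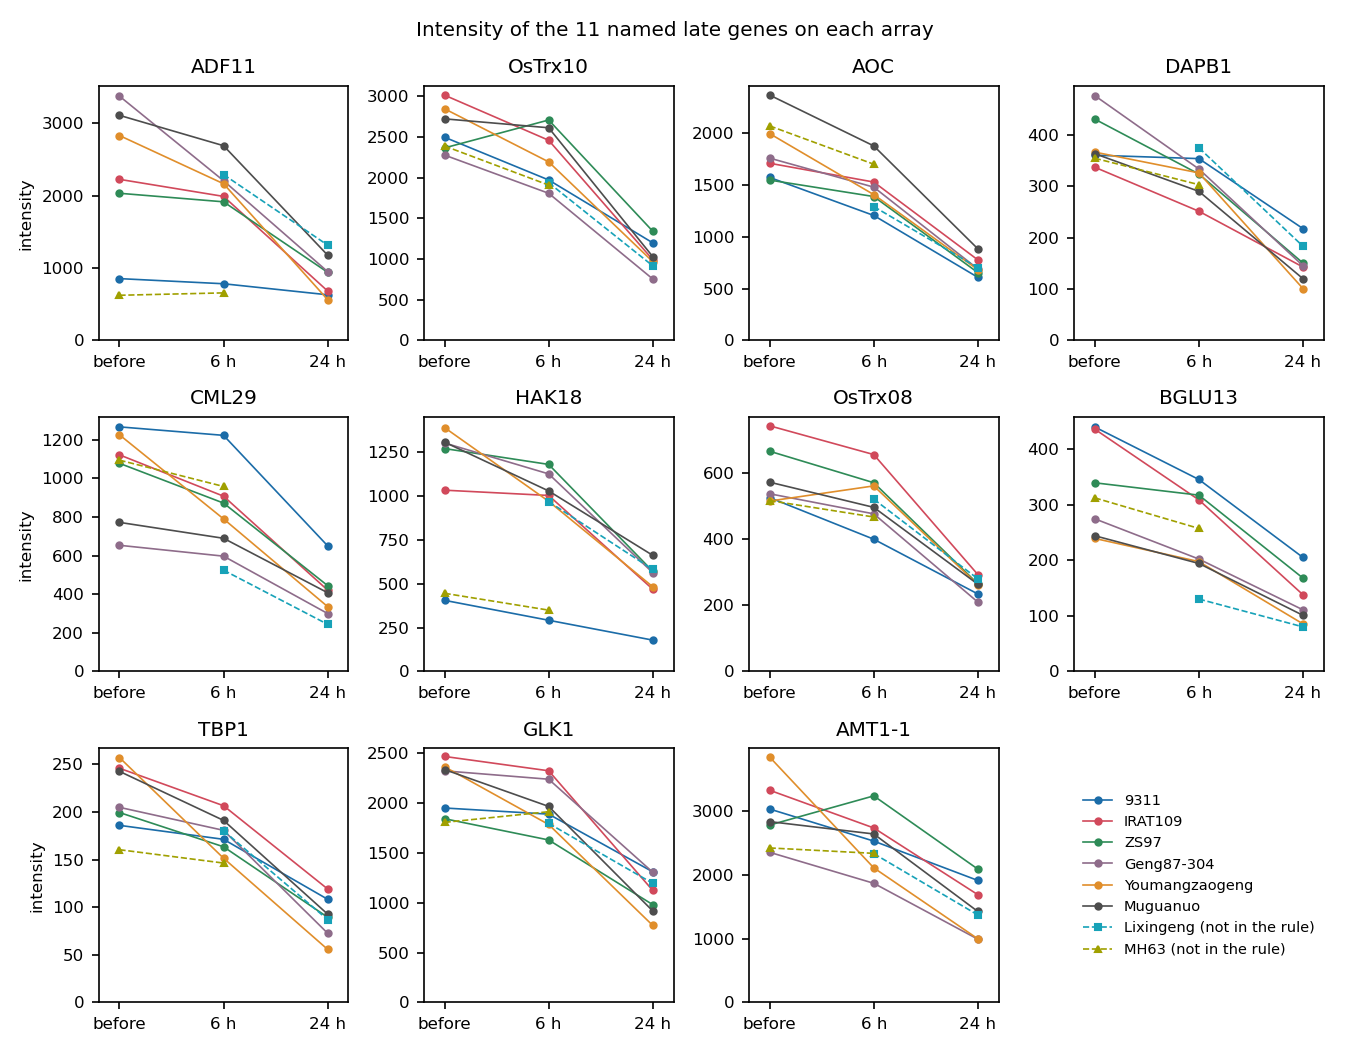
Intensity (linear axes from 0) of the 11 named late genes before cold, at 6 h and at 24 h, with 1 line per accession; dashed lines are the arrays of Lixingeng and MH63 that the rule did not use. In each panel the 6 solid lines end below where they began, and HAK18 and ADF11 start low in 9311 and MH63.

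Most of the deepest falls were in members without a gene name. Those known by locus are given first, as the 15 with the deepest mean falls, chosen after their values were seen. LOC4327573 (chromosome 1) read 3192, 5643 and 6464 before cold, 3178, 4760 and 6841 at 6 h, and 657.5, 1263 and 3864 at 24 h. It kept the most signal in 9311, with a change of -0.74, and the least in Youmangzaogeng, with -2.90, and its mean of -1.86 ± 0.80 (SD, n = 6) was the lowest of all members. LOC4351321 (chromosome 12) fell more evenly, by -1.80 ± 0.26, from a median intensity of 685 before cold to 624 at 6 h and 180 at 24 h, with no overlap of the 24 h arrays with either other group. Its second member probe set fell less, by -1.12 ± 0.20, from 2100 before cold to 1831 at 6 h and 886 at 24 h, again without overlap.

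LOC4347074 (chromosome 9) fell by -1.51 ± 0.14 (SD, n = 6), from a median of 2104 before cold to 705 at 24 h. LOC4351226 (chromosome 11) fell by -1.49 ± 0.46, from 1424 to 513. LOC4326757 (chromosome 1) was read by 2 members, with means of -1.69 ± 0.91 and -1.32 ± 0.50 at 24 h. Another probe set of it was no member because its fall at 6 h, by 0.44, was past the limit, and at 24 h it had fallen by 2.15. The 2 members of LOC4323965 (chromosome 1) gave -1.40 ± 0.18 and -1.35 ± 0.17.

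Among the 5 members under -1.5 was also a probe set with no gene given, which fell by -1.78 ± 0.43 (SD, n = 6), from a median of 903 before cold to 766 at 6 h and 248 at 24 h. Another such probe set fell by -1.43 ± 0.47, from 842 to 302.

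The remaining genes of these 15 were LOC4344496, LOC4340632, LOC4347733, LOC4339402, LOC4324055, LOC4340988 and LOC4344008. Their means at 24 h ran from -1.44 for LOC4344496 to -1.30 for LOC4344008. In 6 of these 7 no array at 24 h reached the lowest before cold, and the exception was LOC4340632. That held in 77 of the 97 members and in 6.07% of all probe sets, and these 7 were picked by the same fall. The 3 members with the highest readings before cold were LOC4327573, LOC9266169 (median 4410 before cold and 1772 at 24 h) and LOC4350255 (3814 and 2022), and the last was among the 4 members within 0.1 at 6 h, with a mean of -0.0941. The member with the least change at 6 h, with a mean of -0.0334, has no gene in the annotation used here. The median array read 1520 before cold, 1478 after 6 h and 698 after 24 h.

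**Figure D3:**
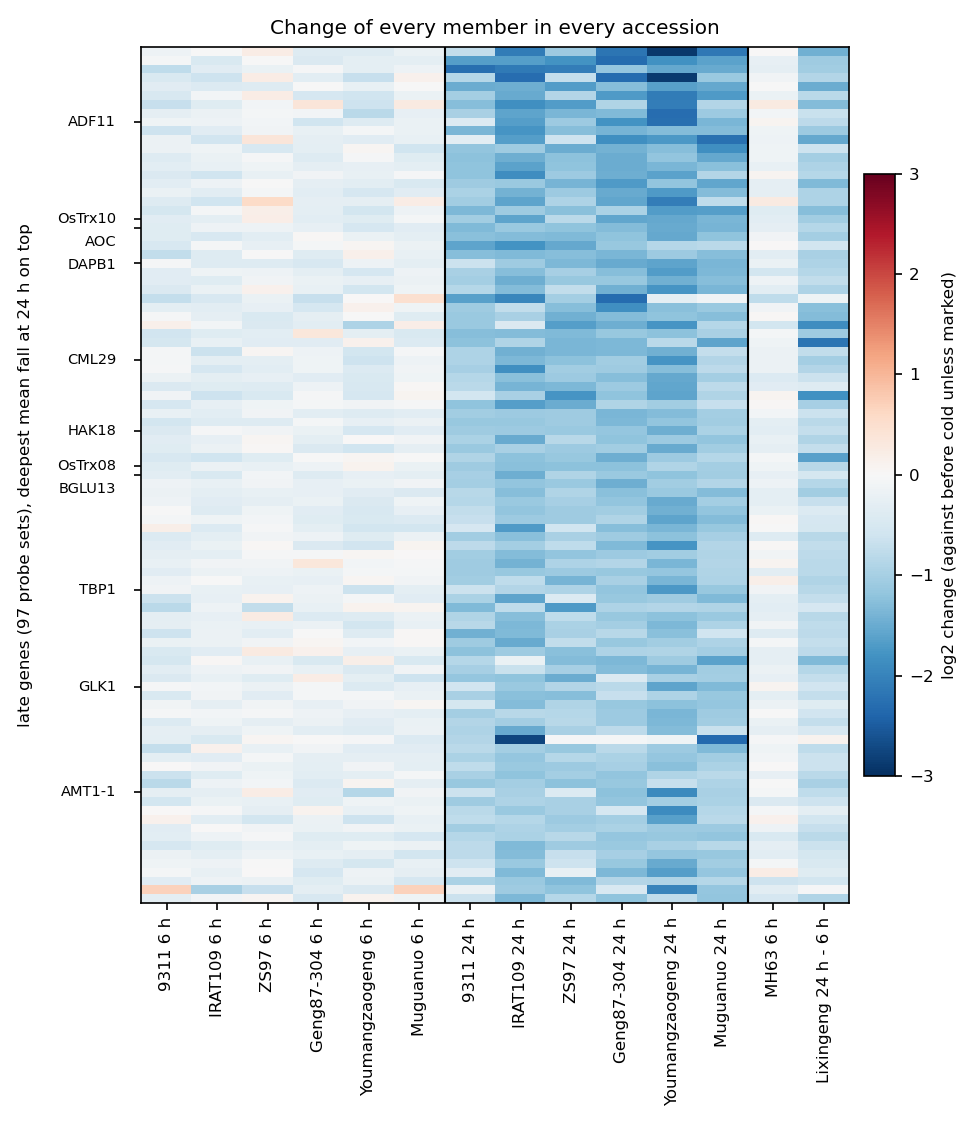
Log2 change of each of the 97 late genes (rows, deepest mean fall at 24 h on top) in each accession (columns), at 6 h and at 24 h against before cold, and in 2 contrasts the rule did not use, MH63 at 6 h and Lixingeng from 6 h to 24 h; blue is lower and red higher. The 6 h columns are pale and mostly blue, the 24 h columns are blue throughout with a few pale cells, and the Lixingeng column is blue in 96 of 97 rows.

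The accessions differed in how far the group fell. The median change of the 97 members at 24 h was -1.34 in Youmangzaogeng, -1.26 in IRAT109, -1.18 in Geng87-304, -1.08 in ZS97, -1.05 in Muguanuo and -0.99 in 9311. Youmangzaogeng had the deepest fall for 40 members and IRAT109 for 26, and 9311 for 2. The smallest fall was in 9311 for 26 members, in Muguanuo for 24 and in ZS97 for 21. With 1 array of each accession at each time, this order was not tested. In the 1040 probe sets already lower at 6 h, the medians were -1.41 in Youmangzaogeng, -1.28 in IRAT109, -1.42 in Geng87-304, -1.34 in ZS97, -1.39 in Muguanuo and -1.22 in 9311, so that 9311 had the smallest median fall in both groups.

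The 6 h values had a different order. The median member was lower by 0.33 in 9311, by 0.29 in Youmangzaogeng, by 0.25 in both Geng87-304 and IRAT109, by 0.19 in Muguanuo and by 0.12 in ZS97. In 9311, 91 of 97 members were lower at 6 h, beside 56.5% of all probe sets, and in ZS97 78 were, beside 46.4%. The 6 h limit applied to the mean, and within single accessions fewer members stayed inside 0.3. These were 44 in 9311, 51 in Youmangzaogeng, 58 in IRAT109, 60 in Geng87-304, 73 in Muguanuo and 76 in ZS97. From 6 h to 24 h the median change was -0.68 in 9311 and between -1.06 and -0.89 in the other 5 accessions. In 9311 more of the fall thus lay before 6 h than in the others, as a description of 1 array per time.

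The spread of the 24 h change over accessions, highest minus lowest, had a median of 0.715 and was above 1 in 27 members. The most even was LOC4345865, between -1.10 and -0.92, with a median intensity of 737 before cold, 640.4 at 6 h and 355 at 24 h. The most uneven has no gene in the annotation used here. It changed by -2.76 in IRAT109, -2.32 in Muguanuo and -0.87 in 9311, but by -0.04 in ZS97, -0.06 in Geng87-304 and -0.12 in Youmangzaogeng. It read 742 before cold in IRAT109 and 7.05 in Geng87-304. LOC4350979 (chromosome 11) similarly fell by 2.301 in Geng87-304 and by 0.10 in Muguanuo, whose array before cold read 131 against a median of 1637. For such members the fall in all 6 accessions that the rule asks for was met by changes close to 0. In 4 members the lowest array before cold read under 64.

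Arrays that the rule did not use gave a view of the same measure in other accessions. In MH63, from before cold to 6 h, the members' median change was -0.17, between -0.76 and 0.27, and 77 stayed within 0.3. There 80 of 97 were lower, beside 60.1% of all probe sets, and 20 were lower by more than 0.3, beside 6.19%. The median was -0.03 over all probe sets and -0.55 over the group already lower at 6 h. In an accession outside the rule the late genes thus read slightly lower at 6 h and changed less than that group.

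In Lixingeng, from 6 h to 24 h, the members' median change was -0.81, between -2.203 and 0.107. Of the 97 members 96 were lower, beside 45% of all probe sets, 85 were lower by 0.5 or more, beside 4.17%, and 22 by 1 or more, beside 0.753%. The single exception was the most uneven member above, which read 4.71 at 6 h and 7.53 at 24 h there. The median was 0.02 over all probe sets and -0.72 over the group already lower at 6 h. Each of these contrasts has 1 array on either side, so there is no test, but the fall between 6 h and 24 h was seen in nearly all members in an accession that had no part in their choice.

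Among the named genes AMT1-1 read 2336 at 6 h and 1373 at 24 h in Lixingeng, HAK18 969 and 582, and GLK1 1797 and 1195. OsTrx10 went from 1939 to 918, OsTrx08 from 521 to 279.8, AOC from 1294 to 703 and DAPB1 from 375 to 183. BGLU13 read 130.4 and 80.2, CML29 524.5 and 244, ADF11 2292 and 1317, and TBP1 180.3 and 86.95. All 11 were lower at 24 h. In MH63 at 6 h the same 11 changed by between -0.32 (OsTrx10 and HAK18) and 0.08 (GLK1), and ADF11, at 0.07, was the other that was not lower.

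With the arrays that stood apart the picture changed. In Lixingeng from before cold to 24 h the median was -0.70 and 95 members were lower, beside 54.5% of all probe sets, but from before cold to 6 h it was 0.11 and 31 were lower, beside 59.4%. In MH63 from before cold to 24 h it was -0.24 with 78 lower, beside 65.4%, and from 6 h to 24 h it was -0.05 with 60 lower, a share near the 58.4% of all probe sets. Those 4 contrasts each rest on an array that went against the others of its accession.

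**Figure D4:**
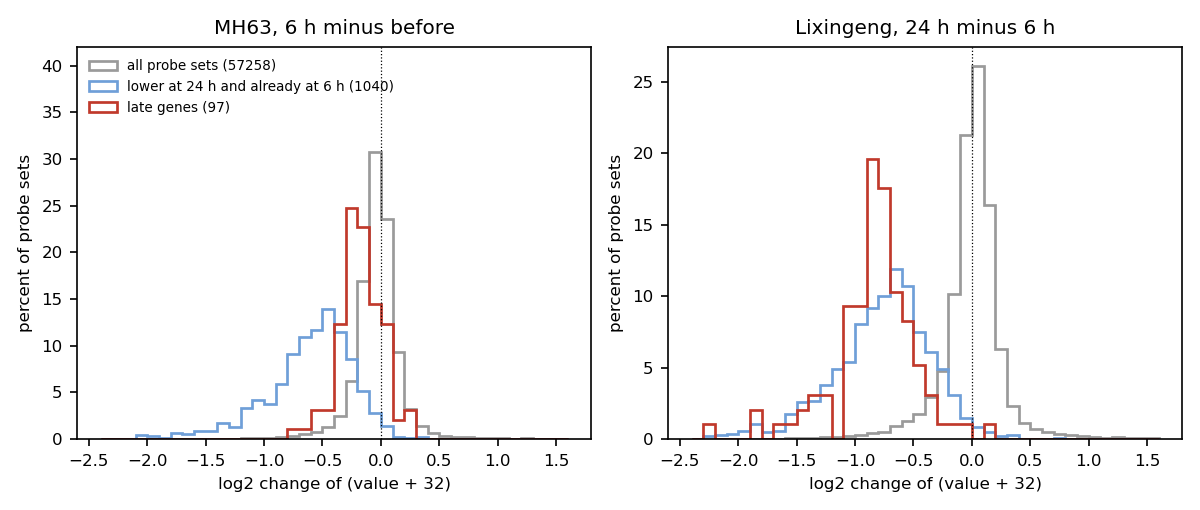
Percent of probe sets by log2 change of (value + 32), in bins of 0.1, for MH63 from before cold to 6 h and for Lixingeng from 6 h to 24 h, for all probe sets (grey), the 1040 already lower at 6 h (blue) and the 97 late genes (red); a few changes of all probe sets lie beyond the bins. In MH63 the late genes centre at -0.17, between the medians of the other groups at -0.03 and -0.55, and in Lixingeng they centre at -0.81, beside -0.72 for the blue group.

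The rule did not use the mean reading of each accession over the times, but it limited the changes within accessions, whose spread enters the test. Whether that mean differed between accessions was tested in a linear model of all probe sets with time and accession as terms. The model took 22 arrays, 18 of which the rule also used, and left out the 2 that stood apart (limma, moderated F test of the accession term, Benjamini-Hochberg adjustment over 57258 probe sets). At an adjusted p under 0.05, the readings of 80 of 97 members differed between accessions, beside 60.9% of all probe sets. No sequence of the accessions was used here, so a different reading need not be a different transcript level. Among other probe sets with a reading before cold like that of the middle members the share was 84.3% (4705 of 5584), and in the group already lower at 6 h it was 84.8% (882 of 1040). On 22 arrays the members' 82.5% was near the share in probe sets of like reading. With all 24 arrays 59 members passed (60.8%), beside 54.3% of all probe sets, 76.9% of those of like reading and 64.2% of the group already lower at 6 h.

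The largest accession terms were those of 5 members. LOC4325256 (chromosome 1; F = 95.9, adjusted p = 7.53e-11 by limma) read 1700 in ZS97 before cold, against 186 in Geng87-304 and a median of 295, and was again highest in ZS97 at 24 h, at 585. LOC4340632 (chromosome 6; F = 82.7, adjusted p = 2.12e-10 by limma) read 33.0 in 9311, 83.9 in ZS97 and 73.9 in MH63 before cold, against 1057 to 2220 in the other 4 accessions with an array used there. In 9311 its fall at 24 h was 0.31, and in Muguanuo, the highest, 2.24. For HAK18 (F = 79.8, adjusted p = 2.75e-10 by limma) 9311 and MH63 stood low, at 405.5 and 446 before cold, against 1034 to 1391 in the other 5 accessions with an array used there.

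LOC4326518 (chromosome 1; F = 66.2, adjusted p = 1.02e-09 by limma) was highest in IRAT109, with 2015 before cold against a median of 478. A probe set with no gene in the annotation used here (F = 54.0, adjusted p = 4.33e-09 by limma), ranged before cold from 1326 in Geng87-304 to 4677 in IRAT109. In 4 of the 5 the accession with the lowest reading before cold, among the 6 of the rule, was also the lowest at 24 h, and in all 5 the arrays before cold and at 24 h overlapped across accessions. At the other end, GLK1 (adjusted p = 0.139 by limma), DAPB1 (0.0735) and TBP1 (0.0889) did not pass.

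**Figure D5:**
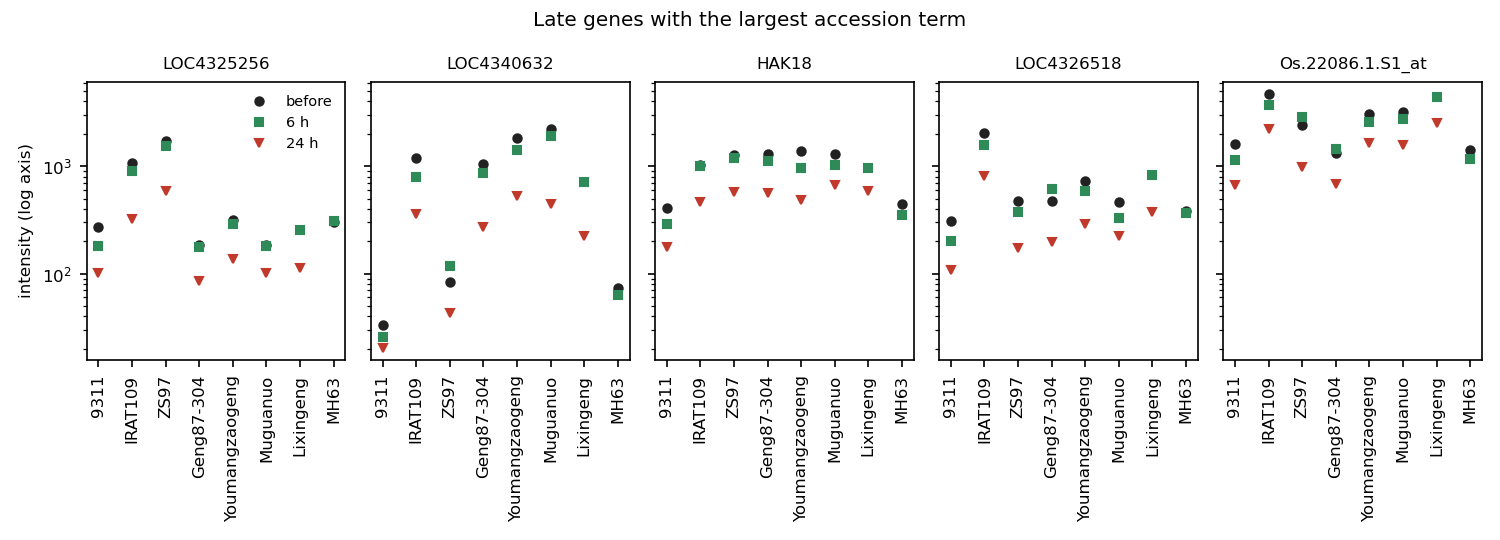
Intensity (log axis) of the 5 late genes with the largest accession term, for each of 8 accessions before cold (circles), at 6 h (squares) and at 24 h (triangles), without the 2 arrays that stood apart. LOC4325256 stands high in ZS97 and IRAT109, LOC4340632 low in 9311, ZS97 and MH63, HAK18 low in 9311 and MH63, and each 24 h value is below the other values of its accession.

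In the genome the members were spread over all 12 nuclear chromosomes. Chromosome 1 held 13 of the 68 member genes (19.1%, against 14.8% of the genes on the array), chromosome 6 held 8 (11.8% against 7.82%) and chromosome 10 held 1. The closest pair was LOC4325256 and LOC4325258 on chromosome 1, with 1 gene between them in the RefSeq order. LOC4325258 fell from a median of 1859 before cold to 817 at 24 h, with a change of -1.25 ± 0.39 (SD, n = 6), beside -1.16 ± 0.36 for LOC4325256. The next pair, LOC4334444 and OsTrx10 on chromosome 3, had 8 genes between them.

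Of the member genes, 16 were also read by 1 probe set that was no member. Only 2 of these 16 had fallen by 0.5 or more at 24 h, that of LOC4326757 and that of LOC4340879 (-0.98), and 11 read under 7 on the log2 scale before cold. LOC4340892 differed at a bright reading. Its member probe set fell by 1.0038 at 24 h, and its other probe set, at 13.1 before cold, changed by -0.02.

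Gene lists of nutrient uptake, photosynthesis, metabolism and hormones were then followed in the same model and with the same adjustment (limma's moderated test, 22 arrays). At 24 h 20.9% of all probe sets passed as lower and 15.9% as higher, and at 6 h 9.91% and 4.5%. Over the genes on the 10 lists, without the late genes, 59 of 176 were lower and 47 higher at 24 h, and 33 were lower and 12 higher at 6 h. The 12 became 7 without Geng87-304 and 6 without MH63. The median change over all probe sets was -0.011 at 6 h and -0.0025 at 24 h. The lists were written with earlier results of these data known. Of the 10 lists, only nitrogen uptake, with AMT1-1, and mineral transport, with HAK18, held a late gene.

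In nitrogen uptake and assimilation AMT1-1 ran against most calls in its list. Of the 14 other genes 8 were higher and 1 was lower at 24 h, with a median change of 0.16, and at 6 h 1 was higher and none lower. The glutamate dehydrogenase GDH2 rose by 1.81 ± 0.14 (SE; adjusted p = 1.00e-08 by limma) and the ammonium transporter AMT2-1 rose by 0.58 ± 0.09, each in 6 of 6 accessions. Without the accession block AMT2-1 lost its call (adjusted p = 0.0576 by limma). At the same time point NAR2.2, a partner of nitrate transporters, fell by 0.33 ± 0.11 and lost its call under 7 of the other settings. Within the ammonium transporter family, gathered after the values were seen, 3 of the other 7 genes were lower at 24 h. These were AMT3-2 with -0.66 ± 0.16, AMT1-2 with -0.44 ± 0.05 and AMT3-3 with -0.36 ± 0.08.

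In potassium, phosphate, sulfate and metal transport, the list of HAK18, 17 of 50 other genes were lower and 14 higher at 24 h, with a median of -0.02. SPX1 and SPX5, of a family that senses phosphate status, rose by 1.61 ± 0.12 (SE) and 1.49 ± 0.15, and the potassium transporter HAK1 rose by 1.56 ± 0.22 (adjusted p = 1.36e-05 by limma). Over the 21 other HAK genes, gathered after the values were seen, 7 were lower and 7 higher at 24 h, and 6 were lower at 6 h. HAK16, at -1.26 ± 0.10, and HAK10, at -0.94 ± 0.11, fell as HAK18 did but had already fallen at 6 h, by 0.43 and 0.54, and HAK7 rose by 1.14 ± 0.13.

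Genes of photosynthesis and light harvesting, which GLK1 is known to promote, were few on the list as matched. Of 7, 2 were lower and 1 higher at 24 h and none passed at 6 h. The photosystem I subunit gene PSAG fell by 0.79 ± 0.09 (SE; adjusted p = 1.90e-06 by limma), lower in 6 of 6 accessions. CAB2R, a chlorophyll-binding protein, changed by -0.12 ± 0.05 and PETC, the Rieske protein of photosynthetic electron transport, by 0.13 ± 0.04, and both calls were lost under several other settings. In starch metabolism 5 of 11 were higher and 1 lower at 24 h. The alpha-amylase AMY3D rose by 1.29 ± 0.11 and the ADP-glucose pyrophosphorylase subunit AGPS2 by 0.40 ± 0.06, and the starch synthase SSII-1 fell by 0.50 ± 0.06.

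In isoprenoid and carotenoid synthesis 5 of 12 genes were lower and 4 higher at 24 h. PSY1, phytoene synthase, the entry to carotenoids, fell by 1.18 ± 0.11 (SE) at 24 h and by 0.50 ± 0.10 at 6 h, DXR of the plastid isoprenoid route fell by 0.50 ± 0.06 at 24 h, and the zeaxanthin epoxidase ZEP rose by 0.55 ± 0.08. In the gibberellin and brassinosteroid pathways 4 of 19 were lower and 6 higher. The brassinosteroid receptor BRI1 rose by 0.88 ± 0.13 and the transcription factor BZR1 of the same pathway by 0.62 ± 0.15, and KAO of gibberellin synthesis fell by 0.77 ± 0.12, a call lost without the accession block (adjusted p = 0.0648 by limma).

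Cytokinin genes leaned downward, with 14 of 26 lower and 3 higher at 24 h and a median of -0.35, and 12 lower and none higher at 6 h. LOGL9 and LOGL10, of the family that activates cytokinins, fell by 1.47 ± 0.11 (SE) and 1.39 ± 0.13, and the cytokinin oxidase CKX11 fell by 1.09 ± 0.10, each also lower at 6 h. In phenylpropanoid and lignin synthesis 8 of 16 were lower and 2 higher at 24 h. The ligases 4CL2 and 4CL3 fell by 1.15 ± 0.11 and 0.56 ± 0.06, and the cinnamyl alcohol dehydrogenase CAD2 fell by 0.90 ± 0.08. In lipid metabolism 4 of 10 were lower and 4 higher. No list of these 3 held a late gene.

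Most calls in jasmonate synthesis ran against AOC. Of the 17 other genes of jasmonate synthesis, gathered after the values were seen, 8 were higher and 1 was lower at 24 h. The allene oxide synthase AOS2, the step before AOC, rose by 2.198 ± 0.134 (SE; adjusted p = 3.11e-10 by limma) at 24 h and by 1.48 ± 0.13 at 6 h. The lipoxygenase LOX8 rose by 1.85 ± 0.15 and LOX9 by 0.96 ± 0.15. OPR10 and OPR5 rose by 1.21 ± 0.26 and 1.01 ± 0.08. They belong to a reductase family of which not every member acts after AOC. The gene that was lower was the lipoxygenase LOX2, with -1.42 ± 0.07. LTP110-A, a lipid transfer protein of the lipid list, changed by -0.85 ± 0.29 and was lower in 4 of 6 accessions, a call lost without the accession block (adjusted p = 0.309 by limma) and without ZS97, Geng87-304 or Muguanuo (0.106, 0.0896 and 0.114).

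The families of the remaining named members were also gathered after the values were seen. Of 12 other thioredoxins 5 were lower and 2 higher at 24 h, and Trx14 at -0.88 ± 0.08 (SE) and Trx25 at -0.77 ± 0.14 came nearest to OsTrx10 and OsTrx08. Of 26 other beta-glucosidases of the BGLU family 16 were lower and 2 higher, with a median of -0.26, led by BGLU22 at -0.99 ± 0.09. Of 8 other actin depolymerizing factors 2 were lower, ADF-7 by 0.28 ± 0.05 and ADF-10 by 0.12 ± 0.04, and none higher.

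Of 22 other calmodulin-like proteins 7 were lower and 8 higher at 24 h, and 7 were higher at 6 h already. CML16, CML15, CML31 and CML27 rose by 3.74 ± 0.19 (SE), 3.57 ± 0.15, 3.07 ± 0.26 and 2.55 ± 0.15, while CML8 fell by 0.66 ± 0.11, beside CML29.

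Genes typical of root or seed served as markers of tissue other than shoot and leaf. Of the 11 measured 3 were lower and none higher at 24 h: the silicon transporter LSI1 of roots fell by 0.80 ± 0.09 (SE), the seed protein gene RAG1 by 0.34 ± 0.06 and the glutelin gene GLUA2 by 0.22 ± 0.06, a call lost after quantile normalization (adjusted p = 0.243 by limma) and without the accession block (0.228). Their summed intensity in the 6 accessions lay between 829 and 1196 before cold, 731 and 1055 at 6 h and 621 and 1001 at 24 h, and was lower at 24 h than before in 6 of 6. None of the 11 was at 0. The part of root or seed tissue in the fall of the late genes was not tested. The leaf genes CAB2R and PETC read 13.0 and 12.6 on the log2 scale before cold. Readings of different probe sets do not rank transcripts, so these values give no share of root or seed tissue.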

How the data were processed

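The deposited table held intensity per probe set and array, not on a log scale. How the authors summarised and scaled it is not stated in the labels. TRIzol was used to extract RNA and biotinylated cRNA was hybridised, per the labels' protocols. Values were used as deposited, as log2(value + 32), without further normalization, and the 123 control probe sets were left out.

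The members, gene lists and tests were chosen with earlier results of these data known, and 7 families of named members and the alternative 6 h windows were added after the values were seen. Probe sets were named through the platform annotation and RefSeq genes (assembly ASM3414082v1), the latter for names, chromosomes and gene order only. A list gene was represented by 1 probe set. Of the 448 symbols on the 10 lists 211 were not found and 10 were ambiguous. The text names every member with a gene name, the 15 locus-only members with the largest mean fall, the 3 with the highest reading before cold, the members beside each limit, the 5 with the largest accession F, and up to 3 genes per list that passed at 24 h. A product description of each locus, promoters and other sequences were not used here, so the locus-only members were taken by size of fall alone.

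The model was fitted with limma 3.58.1 in R 4.3.3 (lmFit, eBayes with an intensity trend) on 22 arrays, with fixed terms for time and for accession and Benjamini-Hochberg adjustment over 57258 probe sets. The threshold was an adjusted p of 0.05. Accession serves as the block, since each was sampled at all 3 times per the labels. Deviations from the time point means correlated at r = 0.673 to 0.890 over 20 pairs of arrays of an accession, past the required 0.1, and at a median of -0.22 over 211 pairs of different accessions. The fit and the selection were tested on simulated data. SDs are over the changes of 6 accessions and SEs are those of the fit. Alternatives were offsets of 16 and 64, quantile normalization, equal array medians, a minimum mean of 64, all 24 arrays, 18 arrays, leaving out each accession, and no block. Python 3.11.15 with numpy 2.4.6, pandas 2.3.3, scipy 1.17.1 and matplotlib 3.10.9 was used for the rest.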

Additional observations from a re-analysis of the deposited data

Results flagged for a closer look

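Of 34 groups of 6 accession values examined, 3 held an accession far from the other 5, with a gap to the nearest value of more than 0.625 of the whole range. Chance gives about 1 in 20 in groups not chosen on their values. The rule chose the members on these same 24 h changes, so these are descriptions, not tests. For the first probe set of LOC4351321 the change at 24 h was -2.301 in Geng87-304, beside -1.82 to -1.61 in the others. For LOC4323965 it was -1.76 in IRAT109, beside -1.39 to -1.27. For LOC4344008 it was -1.53 in Youmangzaogeng, beside -1.31 to -1.195. Each stood on the side of a deeper fall, and each rests on 1 array per time.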

How the results depend on the processing

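The choice of members depended on the 6 h window, and the 97 are a cut through a continuum. Windows of 0.1, 0.2 and 0.5, chosen after seeing the data, gave 4, 25 and 359 members. The rule gave 126 members with an offset of 16 (85 shared with the 97), 79 with an offset of 64 (62), 108 after quantile normalization (64), 103 with equal array medians (95), and from 92 to 133 without each accession in turn (67 to 85). All 97 were lower at 6 h on average under each of these scalings except quantile normalization, where 96 were. The members' median in MH63 at 6 h lay between -0.182 and -0.117 and in Lixingeng from 6 h to 24 h between -0.851 and -0.740. The accession term was passed by 71 to 81 members without each accession, and by 59 with all 24 arrays. For the list genes, leaving out each accession gave 6 to 16 higher and 26 to 36 lower at 6 h, and 37 to 48 higher and 55 to 59 lower at 24 h. Without Geng87-304 7 were higher at 6 h and without MH63 6. The 18 arrays of the rule's accessions gave 7 higher at 6 h. Without the accession block 1 was higher and 11 lower at 6 h, and 23 higher and 37 lower at 24 h. Among repeats for single genes 577 were the same as in the main setting and 31 lost the call. The lost calls were those of CAB2R, NAR2.2, PETC, LTP110-A, GLUA2, AMT2-1 and KAO, and no repeat reversed. The same meant direction and call for list genes, the call alone for accession terms, and a shift under 1 SD for named members. A value for a single accession rests on 1 array at each time.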
